A study of Mus musculus with 13 samples.

Results

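Central memory CD8+ T cells (Tcm) are the 138 cells whose columns carry that name, of 1449 single cells in all. CD8+ T cells of mouse spleen were profiled for 94 genes by TaqMan quantitative PCR, in 13 populations of 1 sample each that follow a response to Listeria monocytogenes engineered to make ovalbumin. The Tcm cells descended from 5000 transferred CD45.1+ cells with the transgenic OT-1 receptor, which recognises the ovalbumin antigen, in CD45.2 C57BL/6J recipients given 5000 colony-forming units a day later, and were taken 45 days after infection. Effector memory cells (Tem, 136 cells) came from recipients treated alike at the same time, and memory precursor cells (day 7 Tmp, 62 cells) from recipients treated alike at day 7. The 149 naive cells were unactivated OT-1 CD45.1+ cells. All carry 1 transgenic receptor and were sorted with antibodies that included CD8 and CD44. The sources used here give neither the gates that separated Tcm from Tem nor the number of mice. The remaining populations are also set beside Tcm below. First-division cells (day 2) came from 2000000 transferred cells and day 3 cells from 20000, with the same bacterial dose. The populations of days 5 and 7 came from 5000. No number of transferred cells was available here for the distal and proximal daughter cells (day 2).

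Central memory cells are the long-lived T cells that keep circulating through lymphoid organs after an infection and divide again when the antigen returns. They are known for holding factors shared with naive cells, such as TCF-1 (encoded by Tcf7), which sustains the capacity for self-renewal, and KLF2, which keeps lymphocytes quiescent and recirculating. They are also known for keeping traces of their effector past, such as a store of transcript for the chemokine CCL5 and the receptors that let them respond to interleukin-15 (Il2rb) and enter inflamed tissue (Cxcr3).

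Each deposited value is on the scale of PCR cycles, where 1 unit is a doubling of template at full efficiency and 0 stands for no detection. The values were read as 40 minus the threshold cycle (Ct), an offset inferred from the values, so a higher value means more transcript. A share is the percentage of cells with a value above 0, with an exact 95% binomial interval that covers counting error only. A level is the number of cycles above a value of 12 (Ct 28), with cells at or under that limit counted as 0, averaged over all cells. Cells of 1 sample are not replicates of a condition, so no test was run. For a transcript found in 0 of 138 cells this interval reaches 2.64%, and a cell without a value may hold transcript that the assay missed.

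The 138 columns did not form 1 even series. At column 83 the difference between the 18S ribosomal RNA assay (R18s) and Actb, which encodes beta-actin, moved from a mean of 5.62 ± 0.68 cycles (SD, 83 cells) to 8.17 ± 0.70 (SD, 55 cells). This single break held 77.0% of the variance of that difference. The best break in the other populations compared here held 18.9% in naive cells, 6.93% in Tem and 22.1% in day 7 Tmp. The labels do not say whether the stretches were separate arrays, sorts or mice. They are called the first and the second stretch, and values in each are given beside the main results. Between the stretches, 6 of 94 genes were at least 20 percentage points apart in share and 6 at least 1 cycle apart in level. In the second stretch Id2, an inhibitor of E proteins, was in 63.6% of cells, against 0 of 83 in the first, and the ribosomal protein gene Rpl35 in 23.6%, against 0 of 83. Pdcd1, which encodes the inhibitory receptor PD-1, was in 25.3% of the first stretch and 0 of 55 cells of the second.

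**Figure D1:**
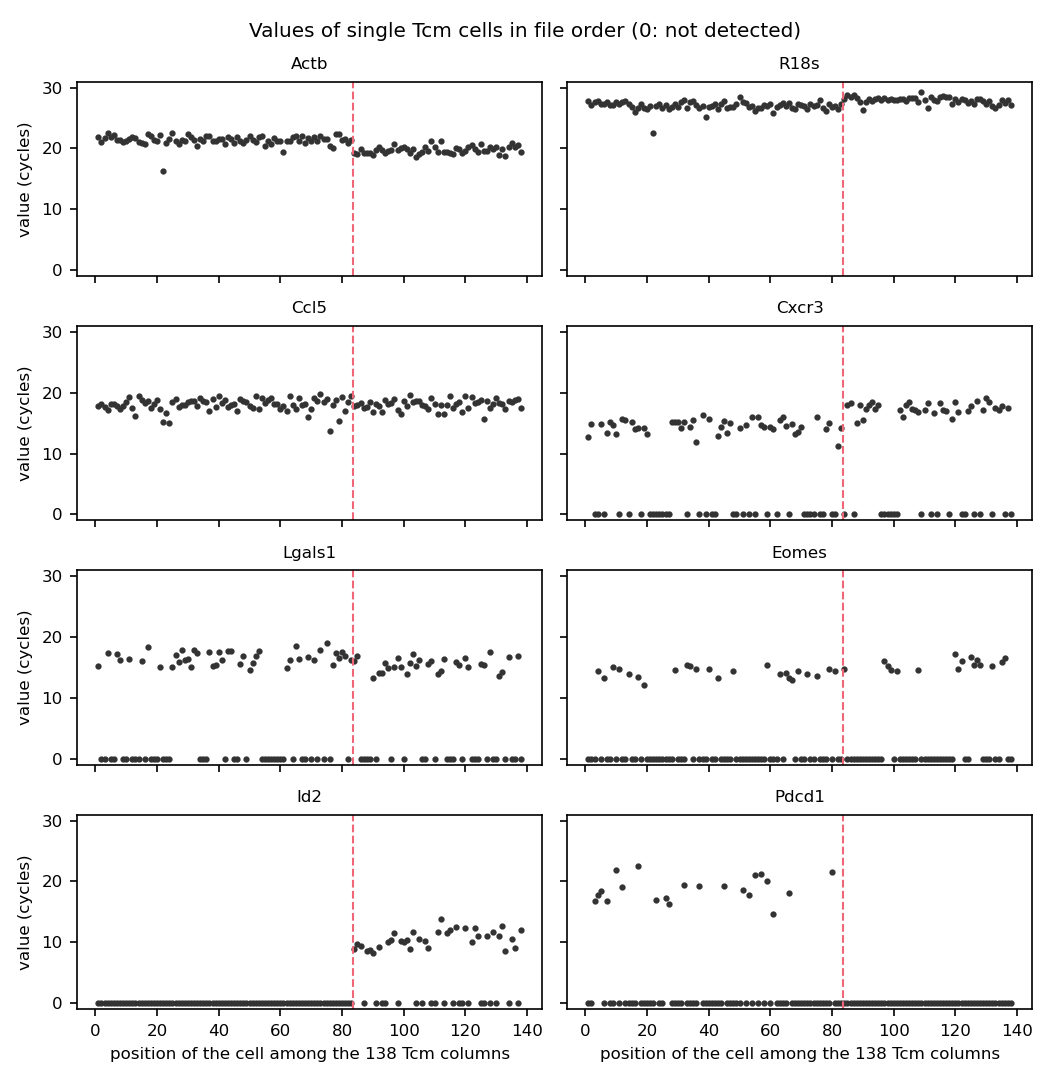
Deposited value (cycles, y axis) of 8 genes in each of the 138 Tcm cells against the position of the cell in the file (x axis), with the break after cell 83 as a dashed line and 0 for no detection. Actb lies lower and R18s higher after the break, Cxcr3 values lie higher, Id2 is found only after it and Pdcd1 only before it, while Ccl5 stands near 18.1 throughout.

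The cells carried the transcripts of CD8 T cells. Ptprc, which encodes the leukocyte antigen CD45, was found in 132 of 138 cells (95.7%), Cd8a, which encodes a chain of the CD8 coreceptor, in 62.3% (53.7 to 70.4%) and the T-cell surface gene Thy1 in 34.8% (26.9 to 43.4%). At least 1 of these 3 was found in all but 2 cells. Of the markers of other T cells, Cd4 was found in 1 cell, Foxp3, the regulatory T-cell factor, in 0, and Gata3, a factor of helper cells, in 5. The listed markers of myeloid and B cells were not among the assays. The 5 transcripts taken as marks of Tcm, Ccl5, Tcf7, Il2rb, Cxcr3 and Klf2, occurred together in 30 cells (21.7%), and at least 4 of them in 86 (62.3%, 53.7 to 70.4%). At least 4 were found in 1.34% of naive cells, 20.6% of Tem, 35.5% of day 7 Tmp and 46.8% of unsorted day 5 cells. The 5 were chosen for Tcm with earlier results of these data known, so the higher share in Tcm is no test of the label.

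A Tcm cell had 10 to 24 of the 94 genes, with a median of 17 (quartiles 15 and 19). The median was 17 in the first and 16 in the second stretch, and lower in the populations set beside Tcm: 12 in naive cells, 11 in Tem and 14 in day 7 Tmp. Of the 94 genes, 4 were found in every Tcm cell, 1 in over 90% but not all, 29 in 10 to 90%, 45 in fewer, and 15 in none. All 1449 profiles were distinct.

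**Figure D2:**
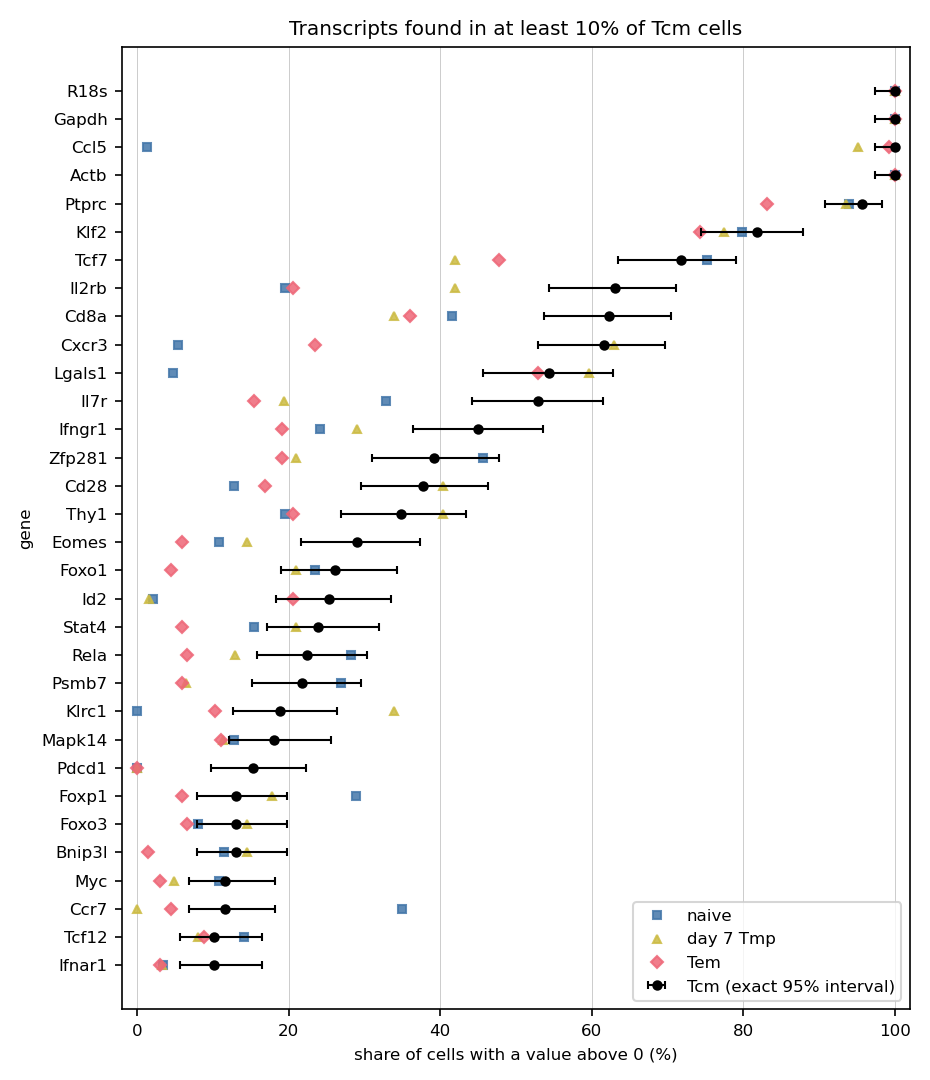
Share of cells with a value above 0 (x axis, percent) for all but 2 of the genes found in at least 10% of Tcm cells (y axis). Black points with exact 95% intervals are Tcm, and squares, triangles and diamonds are naive, day 7 Tmp and Tem cells. Tcf7 stands near the naive cells, Ccl5 near Tem and day 7 Tmp, Klf2 near all 3, and Il7r (52.9%) to the right of the other 3 populations.

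Apart from R18s, Actb and Gapdh, the reference transcripts, Ccl5 was the only gene found in every Tcm cell. Its value ran from 13.7 to 19.8 with a median of 18.1 and a standard deviation of 0.98 cycles. In the first and second stretch its medians were 18.1 and 18.2 and its SDs 1.08 and 0.83. Those SDs were 0.80 and 0.60 for Actb and 0.72 and 0.55 for R18s, so Ccl5 was less even than these within a stretch. The quartiles of Ccl5 lay 1.20 cycles apart, against 2.96 for Gapdh. The median Ccl5 value in cells with the transcript was 13.4 in Tem, 15.7 in day 7 Tmp and 17.1 in unsorted day 7 cells, and the 138 Tcm cells had the highest of the 13 populations. These values are not normalized. The Actb medians also differed, at 21.0 in Tcm, 17.1 in Tem, 19.8 in day 7 Tmp and 20.1 in unsorted day 7 cells. The part of this in the Ccl5 differences was not tested.

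The naive and memory factors and homing receptors had 12 measured members of 17 listed. Of these, 4 were found in at least 50% of Tcm cells, 4 in 10 to 50%, 3 in fewer and 1, Id3, in none. Klf2 was found in 113 of 138 cells (81.9%, 74.4 to 87.9%), with values from 10.5 to 17.9 around a median of 15.5. Tcf7 was found in 99 cells (71.7%, 63.5 to 79.1%), with values from 12.4 to 18.3 and a median of 16.7. Both were common in either stretch: Klf2 in 77.1 and 89.1%, Tcf7 in 73.5 and 69.1% of cells. Klf2 was in 79.9% of naive cells, but also in 79.7% of short-lived effectors at day 5 and 85.4% at day 7. Its presence on this list therefore does not set naive-type cells apart from effectors here.

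Il7r, which encodes the interleukin-7 receptor alpha chain that memory cells need to survive, was found in 73 Tcm cells (52.9%, 44.2 to 61.4%), with values from 14.2 to 18.6. Its share was 44.6% in the first and 65.5% in the second stretch. Either share lay above that of every other population, the next being naive cells with 32.9%. The sources used here do not say whether the interleukin-7 receptor was part of the sort.

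The forkhead factors, which include regulators of Il7r and of quiescence, were found in fewer cells: Foxo1 in 26.1% (19.0 to 34.2%), and Foxo3 and Foxp1 each in 13.0% (7.92 to 19.8%). Ccr7, the receptor that guides T cells into lymph nodes, was found in 16 cells (11.6%, 6.77 to 18.1%) at a median value of 12.7, close to the limit of the level, with 15.7% of the first and 5.45% of the second stretch. Lef1, a partner of TCF-1, was found in 12 cells (8.70%, 4.57 to 14.7%), Bcl11b in 5 and Bcl6 in 4. The naive-type transcripts of Tcm were therefore uneven, with Klf2 and Tcf7 in most cells and Ccr7 and Lef1 in few.

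The effector-type list had 17 measured members of 23 listed, of which 4 were found in at least 50% of Tcm cells, 3 in 10 to 50% and 10 in fewer. The first 4 were Ccl5, Il2rb, Cxcr3 and Lgals1. Il2rb, the chain shared by the receptors for interleukins 2 and 15, was found in 87 cells (63.0%, 54.4 to 71.1%), with values from 10.7 to 18.2 and a median of 15.9. Cxcr3, a chemokine receptor, was found in 85 cells (61.6%, 52.9 to 69.7%), with values from 11.2 to 19.2. Lgals1, which encodes the glycan-binding protein galectin-1, was found in 75 cells (54.3%, 45.7 to 62.8%), with values from 13.2 to 19.0. Their shares differed little between the stretches, at 60.2 and 67.3% for Il2rb, 59.0 and 65.5% for Cxcr3, and 53.0 and 56.4% for Lgals1.

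Cxcr3 had, after Gapdh, the widest spread of value among genes found in at least 30 Tcm cells, with quartiles 2.86 cycles apart. Most of that width followed the stretches. The median value of Cxcr3 was 14.6 in the first and 17.4 in the second, and its quartiles lay 1.11 and 0.98 cycles apart within them. Of the others named here, Id2 (2.43 cycles), Klf2 (1.84) and Lgals1 (1.78) had the widest. Lgals1 had medians of 16.5 and 15.5, and Klf2 of 16.0 and 14.6.

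Eomes, a T-box factor of effector and memory cells that drives Il2rb, was found in 40 of 138 Tcm cells (29.0%, 21.6 to 37.3%), with values from 12.1 to 17.2 and a median of 14.7. Its share was nearly the same in the first and second stretch, 28.9 and 29.1%. Klrc1, a natural killer receptor gene, was found in 26 cells (18.8%, 12.7 to 26.4%), with 9.64% of the first and 32.7% of the second stretch. Id2, the remaining member between 10 and 50%, was found in 35 cells of the second stretch, only 5 of them past a value of 12.

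The transcripts of cytotoxic and terminally differentiated effectors were in few Tcm cells. Zeb2, a repressor active in terminal effectors, was found in 11 cells (7.97%, 4.05 to 13.8%). The cytokine gene Ifng was found in 8 (5.80%), Gzmb, which encodes granzyme B, in 7 (5.07%), and the chemokine genes Ccl4 in 5, Xcl1 in 4 and Ccl3 in 2. The effector factors Prdm1 and Tbx21 were each found in 3 cells (2.17%, 0.451 to 6.22%), the receptor gene Klrg1, a mark of short-lived effectors, in 2 and the granzyme inhibitor gene Serpinb9 in 1. Irf4, a factor induced by receptor stimulation, and the cytokine gene Il2 were found in 0 of 138 cells.

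Among other receptors, Ifngr1, the ligand-binding chain of the interferon-gamma receptor, was found in 44.9% of Tcm cells (36.5 to 53.6%), the costimulatory receptor gene Cd28 in 37.7% (29.6 to 46.3%) and Il2ra, the high-affinity interleukin-2 receptor chain, in 9.42% (5.11 to 15.6%). Cd28 was in 44.6% of the first and 27.3% of the second stretch. Among the 9 activation and inhibition genes, Cd28 and Pdcd1 were found in 10 to 50% of Tcm cells and 7 in fewer, among them Tox in 10 cells, Cd69 in 6, Cd44 in 5 and Lag3 in 1.

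Pdcd1 differed from the others in height. Its 21 Tcm values ran from 14.6 to 22.5 with a median of 18.6, all in the first stretch. Elsewhere it was found in 0 of 149 naive, 0 of 136 Tem and 0 of 62 day 7 Tmp cells, and its next highest share was 1.11%, in day 5 Tmp.

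Of the signalling genes, Stat4 was found in 23.9% of Tcm cells (18.1% of the first and 32.7% of the second stretch), Rela, an NF-kappaB subunit, in 22.5% and the kinase gene Mapk14 in 18.1%, with Nfatc2 in 9 cells and Nfatc1 in 4. The growth regulator Myc was found in 16 cells (11.6%), 15 of them in the first stretch, the kinase gene Mtor in 11, and Hk2, a glycolytic enzyme gene, in 0. Of the apoptosis genes, Bnip3l was found in 18 cells and Casp9 in 0. Zfp281, a zinc finger gene, was found in 39.1% (30.9 to 47.8%), with 50.6% of the first and 21.8% of the second stretch.

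Naive-type and effector-type transcripts were found within the same single Tcm cells. A cell that had Tcf7, Ccl5 and at least 1 of Lgals1, Cxcr3, Il2rb and Eomes was called mixed. This held for 97 of 138 Tcm cells (70.3%, 61.9 to 77.8%), with 71.1% in the first and 69.1% in the second stretch. Of the 99 Tcm cells with Tcf7, all but 2 were mixed. Ccl5 was in every Tcm cell and all but 4 had at least 1 of the 4 transcripts. The mixed share of Tcm therefore follows its Tcf7 share (71.7%). No naive cell of 149 was mixed, with an interval that reaches 2.45%. Ccl5 alone was in 2 naive cells, so a share near 0 was set by that gene. The share of mixed cells was 37.5% in Tem (29.4 to 46.2%), 33.9% in day 7 Tmp (22.3 to 47.0%), 24.6% in unsorted day 7 cells, 26.7% in day 5 Tmp and 10.4% in unsorted day 5 cells. Among short-lived effectors (Tsle) it was 2.25% at day 7 and 0 of 79 cells at day 5.

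Klf2 and Tcf7 were found together with Ccl5 in 80 Tcm cells (58.0%, 49.3 to 66.3%). Naive cells had Tcf7 and Klf2 together about as often (59.1%), but in 0 of 149 with Ccl5. Since Ccl5 was in every Tcm cell and in 2 naive cells, this contrast restates the share of Ccl5. The 3 transcripts were found together in 33.8% of Tem (25.9 to 42.4%) and 29.0% of day 7 Tmp cells (18.2 to 41.9%).

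The number of genes found per cell was larger in Tcm than in naive, Tem and day 7 Tmp cells, which gives more chances for a combination. It was not larger than in unsorted day 7 and day 5 cells, with medians of 17 and 19. Mixed cells were therefore counted within bands of that number. With up to 14 genes, 46.4% of 28 Tcm cells were mixed (27.5 to 66.1%), against 35.2% of 125 Tem cells (26.9 to 44.2%) and 31.2% of 32 day 7 Tmp cells (16.1 to 50.0%). With 15 to 17 genes, the shares were 72.7% of 55 Tcm cells (59.0 to 83.9%), 60.0% of 10 Tem cells (26.2 to 87.8%) and 33.3% of 21 day 7 Tmp cells (14.6 to 57.0%). With 18 or more, they were 80.0% of 55 Tcm cells (67.0 to 89.6%) and 44.4% of 9 day 7 Tmp cells (13.7 to 78.8%), and Tem had 1 such cell. The intervals of Tcm and Tem overlapped in each band with over 1 Tem cell, and those of Tcm and day 7 Tmp did not with 15 to 17 genes. The genes that define a mixed cell are themselves counted in the bands, and the part of the number of genes found in the difference between populations was not tested.

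Counted over the whole lists, a Tcm cell had a median of 4 naive-type genes of 12 (quartiles 3 and 4.75) and 4 effector-type genes of 17 (quartiles 3 and 5). Naive cells had medians of 4 and 0, Tem of 2 and 3, and day 7 Tmp of 2 and 4. At least 2 of each kind were found in 131 Tcm cells (94.9%, 89.8 to 97.9%), in 10.7% of naive cells (6.26 to 16.9%), 50.0% of Tem (41.3 to 58.7%) and 64.5% of day 7 Tmp (51.3 to 76.3%). They were also found in 53.2% of day 5 Tsle, 33.7% of day 7 Tsle, 65.6% of day 5 Tmp and 67.2% of unsorted day 7 cells. Every Tcm cell had at least 1 of each.

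**Figure D3:**
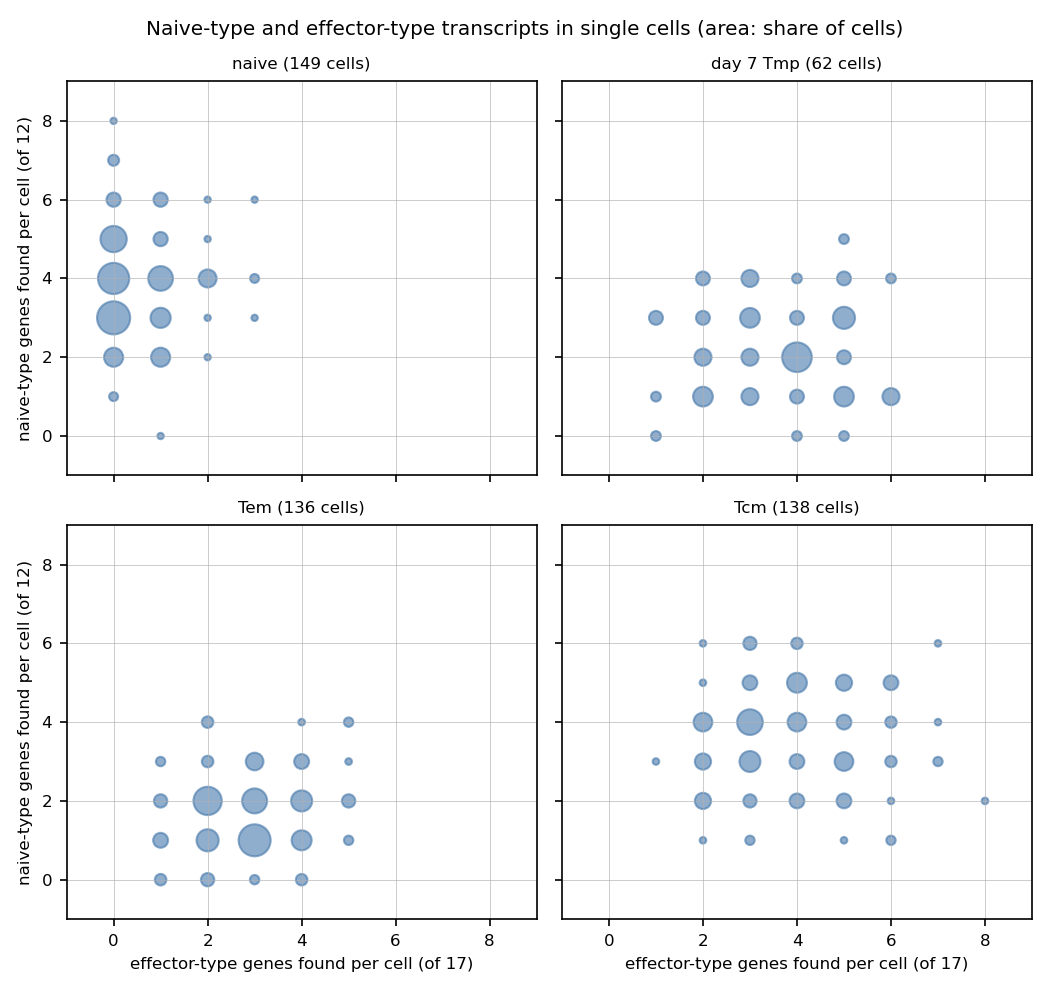
Number of naive-type genes (of 12, y axis) against effector-type genes (of 17, x axis) found in each cell of 4 populations, with the area of a circle proportional to the share of the population's cells at that point. Naive cells lie along the left edge, Tem and day 7 Tmp lower down, and Tcm cells around 4 of each, with none at 0 on either axis.

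The 4 transcripts Lgals1, Cxcr3, Il2rb and Eomes were combined in every possible way in Tcm. There were 4 cells with none of them, 35 with 1, 53 with 2, 38 with 3 and 8 with all 4. The 16 combinations were all present, and the most common, Cxcr3 with Il2rb alone, took 21 cells (15.2%, 9.67 to 22.3%). It was followed by Lgals1, Cxcr3 and Il2rb together in 18 cells (13.0%). Cxcr3 with Eomes alone, in 3 cells, was seen in the first stretch only, and the other 15 combinations in both.

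Cells with Tcf7 had Lgals1, Cxcr3 and Il2rb about as often as cells without it. Of the 99 Tcm cells with Tcf7, 56.6% had Lgals1 (46.2 to 66.5%), against 48.7% of the 39 without (32.4 to 65.2%). Cxcr3 was in 60.6% (50.3 to 70.3%) and 64.1% (47.2 to 78.8%), and Il2rb in 63.6% (53.4 to 73.1%) and 61.5% (44.6 to 76.6%). The interval of the difference with minus without Tcf7, combined from the exact intervals, ran from -11.6 to 26.9 points for Lgals1, from -21.5 to 16.0 for Cxcr3 and from -16.2 to 21.5 for Il2rb. These intervals leave room for differences of over 10 points in either direction. The direction of all 3 turned between the stretches: -2.09 and 22.0 points for Lgals1, 12.3 and -24.5 for Cxcr3, -10.8 and 20.7 for Il2rb. Cells with Tcf7 had a median of 16 other genes and those without 15. Klf2 was in 80.8 and 84.6% of cells with and without Tcf7, and the median Ccl5 value was 18.2 and 18.1.

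Eomes was found more often in Tcm cells with Tcf7. It was in 34 of 99 cells with Tcf7 (34.3%, 25.1 to 44.6%) and 6 of 39 without (15.4%, 5.86 to 30.5%), a difference of 19.0 points with an interval from 1.21 to 32.9. That interval covers counting error among cells of 1 sample, and Eomes was 1 of 4 genes compared, so this is a description and no test. The difference was 14.6 points in the first and 25.1 in the second stretch. It was 15.8 points among cells with up to 17 genes and 20.0 among those with more. With Klf2, which was also common in effectors, in place of Tcf7 the difference was -8.57 points. The share of cells with Tcf7 was 50.0% where none of the 4 transcripts was found (4 cells), 68.6% with 1, 69.8% with 2, 76.3% with 3 and 87.5% with all 4 (8 cells).

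**Figure D4:**
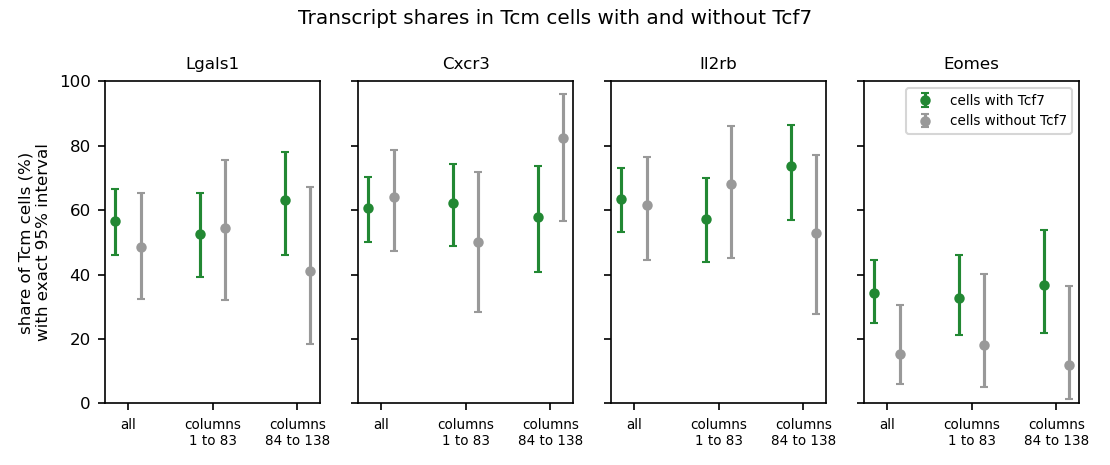
Share (y axis, percent, with exact 95% intervals) of Tcm cells with Lgals1, Cxcr3, Il2rb and Eomes among cells with (green) and without (grey) Tcf7, over all 138 cells and in the first 83 and the last 55 columns. Eomes lies higher with Tcf7 in all 3 sets, while the order of the other genes turns between the stretches.

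Cxcr3, Il2rb and Lgals1 were also compared between the 40 Tcm cells with Eomes and the 98 without. Lgals1 was in 67.5% of cells with Eomes and 49.0% of those without, but this turned among cells with over 17 genes, at 55.0 and 68.6%. Cxcr3 was in 50.0 and 66.3%, with nearly equal shares in the first stretch (58.3 and 59.3%) and 37.5 and 76.9% in the second. Il2rb, a known target of the factor, was in 67.5% of cells with Eomes (50.9 to 81.4%) and 61.2% of those without (50.8 to 70.9%).

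Beyond these, pairs of genes were found together in Tcm with little order. Over the 406 pairs of the 29 genes in 10 to 90% of cells, phi, the correlation between finding the first gene and finding the other, had a median of 0.0052, and 4 pairs reached 0.3 in size. The sign was the same in the earlier and later equal parts of the columns for 196 pairs, and also in both stretches for 127. The highest of the former that are named here were the proteasome gene Psmb7 with the E protein gene Tcf12 (0.35, 9 cells with both), Ccr7 with Mapk14 (0.24, 7 cells), Foxo1 with the interferon receptor gene Ifnar1 (0.24, 8 cells), and Myc with Pdcd1 and with Ifngr1 (both 0.22). The first 3 lay mostly in the first stretch, at 0.42, 0.34 and 0.34 there and 0.13, 0.08 and 0.02 in the second. Myc with Pdcd1 was 0.16 in the first stretch and has no value in the second, which held no Pdcd1. The lowest named here were Mapk14 with Rela (-0.21, 1 cell with both), Il7r with Myc (-0.20), Ifngr1 with Stat4 (-0.20), Bnip3l with Thy1 (-0.19) and Rela with Thy1 (-0.17). Eomes with Tcf7, described above, had a phi of 0.19. These cells share 1 sample, and values this small in sparse data are a description only. The values of Lgals1 and Cxcr3 had a Pearson r of -0.43 over the 44 Tcm cells with both, but 0.04 and -0.14 within the first and second stretch.

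Against naive cells, Tcm had the effector-type receptors and chemokine in more cells and 10 of the 12 naive-type genes within 20 points. By share, 10 of 94 genes (10.6%) were at least 20 points higher and 1 (1.06%) lower. By level, 8 (8.51%) were at least 1 cycle higher and 0 lower. The largest differences in share named here were Ccl5 (98.7 points), Cxcr3 (56.2), Lgals1 (49.6), Il2rb (43.6), Cd28 (24.9), Id2 (23.3) and Ifngr1 (20.8), followed by Cd8a (20.7) and Il7r (20.0). Those of Ccl5, Cxcr3, Lgals1 and Il2rb were at least 20 points for either equal part of the Tcm columns set against either part of the naive ones. The Id2 difference came from the second stretch alone, and that of Il7r was 11.7 points for the first and 32.6 for the second. Cd28, Ifngr1 and Cd8a were 31.8, 25.2 and 24.7 points higher for the first stretch but under 20 for the second, where Cd28 was at 14.5, Cd8a at 14.8 and Ifngr1 in 38.2% of cells against 24.2% of naive cells. Ccr7 was the gene lower in Tcm, by 11.6 against 34.9% (27.3 to 43.1%), with -19.2 and -29.4 points for the stretches. With detection set above a value of 12, 8 genes were higher and 0 lower, so this call ended. Foxp1 (13.0 against 28.9%) and Lef1 (8.70 against 17.4%) stood below naive by less than 20 points. Of the 12 naive-type genes 1 was higher and 1 lower by share, with a median difference of 0.12 points against 0.89 over all 94 genes. Of the 17 effector-type genes 5 were higher and 0 lower, with a median of 5.13 points.

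Against Tem, the other memory population of day 45, Tcm had receptors and naive-type transcripts in more cells. By share, 12 of 94 genes (12.8%) were at least 20 points higher in Tcm and 0 lower. By level 12 (12.8%) were at least 1 cycle higher and 0 lower. With cells centred on Actb and Gapdh the latter were 5 higher and 2 lower. With R18s and Actb as the reference they were 4 and 3. Tem cells had a median of 11 genes and an Actb median of 17.1, against 17 genes and 21.0 in Tcm, and the part of this in each difference was not tested. The largest shares named here were those of Il2rb (42.5 points, 63.0 against 20.6%), Cxcr3 (38.1), Il7r (37.5), Cd8a (26.3), Ifngr1 (25.8), Tcf7 (23.9) and Eomes (23.1). Eomes was in 5.88% of Tem (2.57 to 11.3%), and its difference was 23.0 and 23.2 points for the first and second stretch. Cd28, Foxo1 and Zfp281 were the others named here, by 20.8, 21.7 and 20.0 points. Of these, 4 were under 20 points for the second stretch: Zfp281 (31.5 for the first and 2.70 for the second), Cd28 (27.7 and 10.4), Foxo1 (24.5 and 17.4) and Ifngr1 (30.3 and 19.1).

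Lgals1 differed from Tem in deposited value and little in share. It was in 54.3% of Tcm and 52.9% of Tem cells, at median values of 16.2 and 12.9, and a level 1.57 cycles higher in Tcm. The medians of Actb lay further apart, at 21.0 and 17.1, and the part of this in the Lgals1 difference was not tested. Klf2 was 7.62 points higher in share. Zeb2 was in 7.97% of Tcm and 24.3% of Tem cells, the largest difference in the other direction. Of the 12 naive-type genes 4 were higher in Tcm by share and 0 lower, with a median of 7.17 points against 2.15 over all genes. Of the 17 effector-type genes 3 were higher and 0 lower, with a median of 1.41, and of the 4 cytokine receptors 3 were higher.

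Day 7 memory precursors are regarded as the source of such cells. Against them, 6 of 94 genes (6.38%) were at least 20 points higher by share in Tcm and 0 lower, and 9 (9.57%) at least 1 cycle higher by level and 0 lower. Il7r (33.5 points, 52.9 against 19.4%), Tcf7 (29.8, 71.7 against 41.9%), Cd8a (28.4), Id2 (23.7, in the second stretch alone) and Il2rb (21.1, 63.0 against 41.9%, with 18.3 for the first and 25.3 for the second stretch) were among those higher by share. Cxcr3 (61.6 against 62.9%) and Klf2 (81.9 against 77.4%) were found about as often. Klrc1 was in 18.8 against 33.9%. By level Ccl5 was higher by 3.03 cycles, Tcf7 by 2.20, Ptprc by 2.08, Cd8a by 1.61, Lgals1 by 1.54, Actb by 1.32, Il7r by 1.28 and Pdcd1, in the first stretch alone, by 1.03. For the first and second stretch Actb was 1.97 and 0.35 cycles higher, Il7r 0.85 and 1.94, and Ptprc 2.63 and 1.26. Within day 7 Tmp itself median Actb fell from 20.4 to 17.65 along the columns. The part of this in the level differences was not tested. Lgals1 was found in slightly fewer Tcm cells (54.3 against 59.7%) at a higher median value, 16.2 against 13.1. Of the 12 naive-type genes 3 were higher by share and 0 lower, with a median of 4.79 points against 0.28 over all genes. Of the 17 effector-type genes 2 were higher and 0 lower, with a median of 0.56.

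Set beside all 13 populations, Tcm had the highest share of 6 genes that were in over 5% of its cells and tied with no other population. They included Ccl5, where Tem followed with 99.3%, Il7r, Pdcd1, Ifnar1 (10.1%, next to 9.72% in first-division cells) and the transcription factor gene Atf1 (5.80%, at a median value of 5.32, far under the limit of the level). For Il2rb Tcm came second after unsorted day 5 cells (70.1%), close to day 5 Tmp (61.1%). For Cxcr3 it stood after unsorted day 5 (68.8%) and day 7 Tmp (62.9%), and these neighbours lay within each other's intervals. For Lgals1 it was seventh, next to Tem, and far under the 93.3 to 98.7% of the day 5 populations. Eomes ran from 48.2% in proximal daughter cells of the first division to 5.88% in Tem. Tcm, at 29.0%, was sixth, beside distal daughters (29.2%) and unsorted day 5 cells (31.8%).

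**Figure D5:**
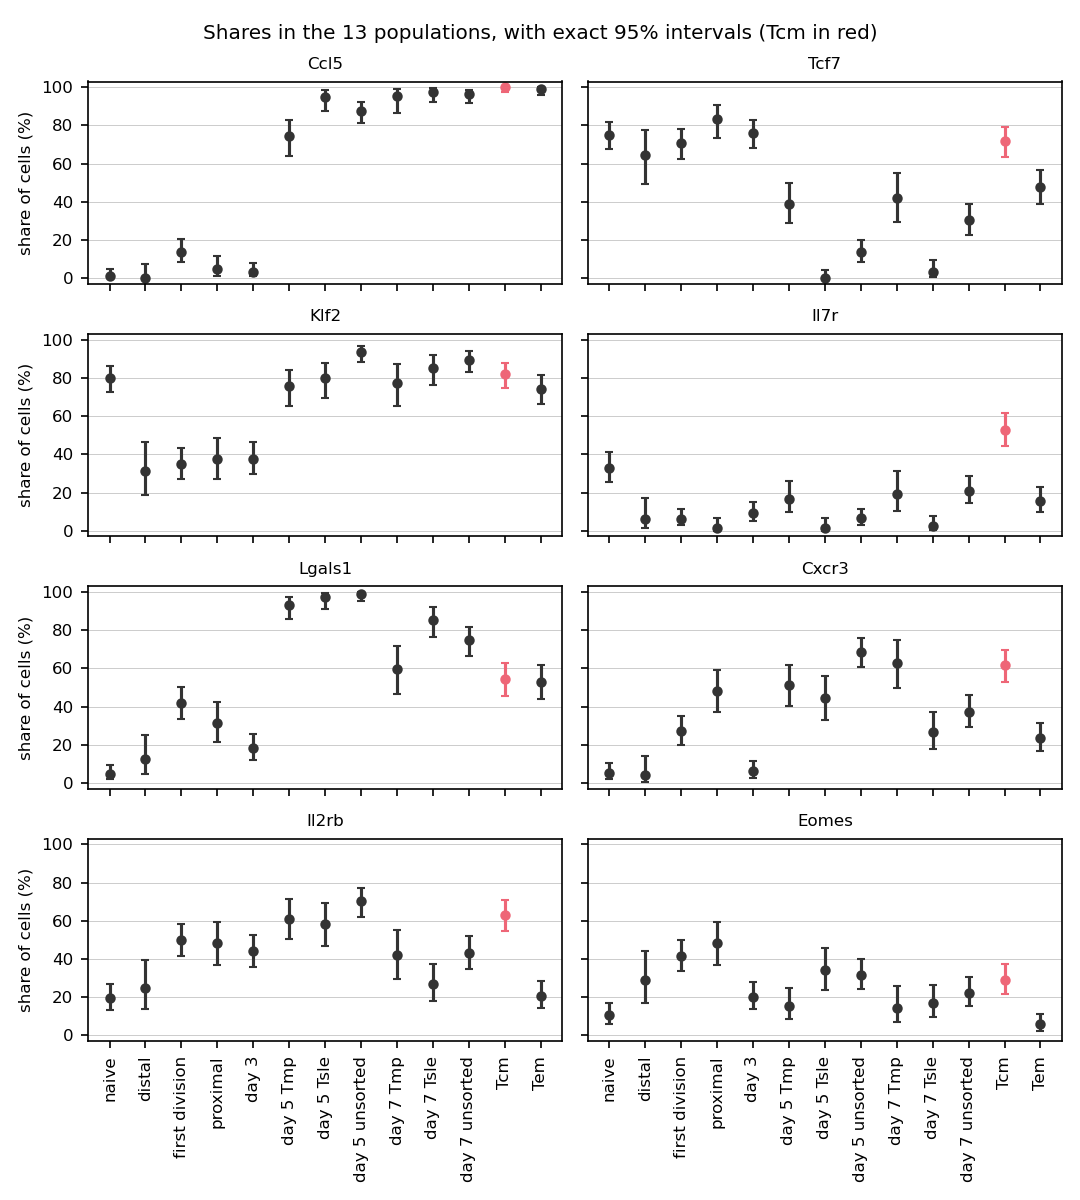
Share of cells (y axis, percent, with exact 95% intervals) for 8 genes in the 13 populations (x axis), with Tcm in red. Tcm stands high at once for Tcf7, Klf2 and Ccl5, and highest of the 13 for Ccl5 and for Il7r at 52.9%.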

How the data were processed

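Single cells were sorted into a reverse transcription and preamplification mix, amplified for 18 cycles, diluted 5-fold and measured with TaqMan assays on a Fluidigm BioMark, per the labels' protocols. The deposited table holds 95 assay rows and 1449 cells. Its values, which the labels name Ct without normalization, are log2 amounts in PCR cycles as deposited by the authors. They grow with the amount of RNA and run from 1.01 to 35.0, with 0 in 83.2% of the table, so they were read as 40 minus Ct. Of the values above 0 in Tcm, 7.99% were at or under the limit of 12. The sources used here give no gates, numbers of mice, arrays or cell filters.

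Columns were assigned to populations by their headings, and the number of Tcm columns equalled the number stated. The 2 rows of Il2 were joined by their maximum, giving 94 genes. By accession, 93 rows were matched to the mouse RefSeq table (GRCm38.p6), for their names alone. The members and the gene lists were chosen with earlier results of these data known. Because each population is 1 sample, genes were counted by size, at least 20 points of share or 1 cycle of level. The text names the 5 marker genes, Eomes and Lgals1, listed genes found in at least 5 Tcm cells or on which a count turns, the 8 largest differences per direction and comparison, the 6 highest and 6 lowest pairs, and the 6 widest spreads. A few genes that enter every count are left unnamed here. Atf1, Rpl35, Gapdh values and listed genes found in fewer than 5 Tcm cells were named after their values were seen.

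Alternatives were Ct limits of 26 and 30 and none, detection above 12, minimums of 10 and 15 genes per cell, centring, medians, means of detected cells, a gene filter, Klf2 in place of Tcf7, and equal earlier and later parts of the columns. The break at column 83 was found by least squares on R18s minus Actb after the values were seen, and the stretches and the 4 pairings of column parts were added then. On simulated data made from naive cells, for 94 genes, 20 of them set 40 points apart, 100% of those and 0 of the others were called. This says nothing of differences near the threshold of 20 points. In separate binomial draws, 95.6% of exact intervals held the true share, which follows from how such intervals are built. The tools were numpy 2.4.6, scipy 1.17.1 for the exact intervals and, for figures, matplotlib 3.10.9, under Python 3.11.15.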

Additional observations from a re-analysis of the deposited data

How the results depend on the processing

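The share of mixed Tcm cells stayed within its interval, and the median numbers of naive-type and effector-type genes within their quartiles, in each alternative run. Over all results that answer a comparison, 98 of 113 alternatives stayed within an interval, quartiles or 1.5-fold range, and 15 did not. The 98 are no measure of stability. All 138 Tcm cells had at least 10 genes, so that minimum could not change a result on Tcm alone. The gene filter left out no gene counted by share. The 1.5-fold range compares numbers of genes only. By level against naive cells, means of detected cells gave 8 genes, 3 of them among the main 8. A limit at Ct 30 kept all 8. By share against day 7 Tmp, the earlier columns gave 7, with 3 of the main 6. For the differences by Tcf7 the interval covers counting error only. It spans 0 for all but Eomes, 1 of the 4 genes compared, and says nothing of stability. Counting only genes past the threshold for each equal part of the Tcm columns against each part of the other population left 4 (naive), 5 (Tem) and 2 (day 7 Tmp) genes by share, and 5 (naive) and 7 (Tem) by level. Without a limit on the level, 24 genes differed from naive (19 higher, 5 lower), 30 from Tem and 24 from day 7 Tmp. A limit at Ct 26 gave 5 against naive, and the later columns alone gave 7 by share against Tem. Centring gave 7 against Tem with either reference. The difference by Tcf7 was -24.5 points for Cxcr3 in the second stretch and -16.7 for Il2rb in the earlier columns. With Klf2 in place of Tcf7, the Eomes difference was -8.57 points. The cause of these shifts was not tested. Of 49 alternatives for the shares of 7 genes, 1 left its interval (Klf2, 89.1% in the second stretch). The runs with at least 10 genes per cell could not move these shares either. No paired analysis was possible because each population is 1 sample without replicates. Precision is set by the 138 cells, of which 39 lacked Tcf7.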
